A study of Mus musculus with 8 samples.

Results

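Transcripts of 10 genes that shorten the poly(A) tails of mRNAs, or that hold or guide the enzymes doing so, were compared between wild-type and Dicer knockout mouse oocytes. The genes were Cnot1, Cnot2, Cnot3, Cnot6, Cnot6l, Cnot7, Cnot8, Btg4, Parn and Pan3, and every probe set annotated to a single one of these symbols was taken. This gave 28 probe sets for 9 genes, of 45037 probe sets and 18193 genes on the array. Both probe sets that list Cnot1 also list the gene model Gm6158, so no value is given for Cnot1. Wild-type and Dicer knockout females, all labelled strain 129/C57BL6 and primed with equine chorionic gonadotropin (a hormone that makes follicles grow), gave fully grown oocytes with an intact germinal vesicle. Cumulus cells were removed by pipetting. Each of the 4 mice per genotype gave 20 oocytes, whose RNA went through 2 rounds of linear amplification before it was read on an Affymetrix array of its own. The labels give no age, do not say how or in which cells Dicer was deleted, and number no replicates, so arrays are numbered here in deposit order.

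The poly(A) tail protects an mRNA and helps its translation, and its removal is the first step of most mRNA decay. In the CCR4-NOT complex, CNOT1 is the scaffold, CNOT2 and CNOT3 form a module on it, and the catalytic subunits come as paralogues, CNOT6 or CNOT6L together with CNOT7 or CNOT8. PAN2-PAN3 is a separate deadenylase recruited through the poly(A)-binding protein, and PARN is a further poly(A) ribonuclease. Animal microRNAs, which Dicer makes, silence targets partly by bringing CCR4-NOT and PAN2-PAN3 to them. The oocyte stores mRNAs, many with short tails, and clears them during maturation and early embryogenesis, a process in which mouse BTG4 and CNOT6L are known to act.

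Values are log2 signals, so a difference of 1 is a 2-fold change, and no order of abundance is read from signals of different probe sets. Where 2 probe sets are subtracted on each array, only the change of that difference between genotypes is of interest. A probe set is said to rise or fall where limma, fitted over all 45037 probe sets, gave a Benjamini-Hochberg adjusted p under 0.05. The brightest probe set of a gene, taken by the mean over all arrays, stands for the gene. The array medians lay between 6.35 and 6.43. Arrays of the same genotype correlated at r = 0.9915 to 0.9947 across probe sets and those of different genotypes at 0.9797 to 0.9865. Both probe sets of Dicer1 were brighter in knockout (2.28-fold and 1.61-fold), and since the deleted exons are not given, they do not check the genotype. Over all genes 8.18% rose and 12.8% fell. Of 15 oocyte markers 1 rose and 4 fell, and Zp2, Zp3 and Gdf9 had means of 14.26 or more in both groups. Of 17 markers of cumulus and granulosa cells 0 rose and 9 fell, and their mean log2 signal was 7.92 to 8.37 on wild-type arrays and 7.48 to 7.75 on knockout arrays. The dimmest marker, Tnfaip6, had group means of 3.32 and 3.41. The brightest in wild type were among those that fell: Inha (means 10.91 and 9.91), Nr5a2 (10.67 and 10.24) and Inhbb (10.59 and 9.40). Among 15 marker genes of blood, vessel, stromal or theca cells, Cd68 rose (log2 difference 1.16) and Kdr and Tek fell (-0.54 and -0.78), and their mean log2 signal was 6.34 to 6.50 on wild-type arrays and 6.29 to 6.45 on knockout arrays. The 3′ minus 5′ log2 signal of the actin control was 1.97 to 2.63 in wild type and 1.95 to 2.29 in knockout, and that of the Gapdh control 2.87 to 3.07 and 2.60 to 2.93. The part of RNA from these other cells and of RNA quality in the changes below was not tested, and in such pools fewer transcripts per cell and fewer contributing cells cannot be told apart.

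Among the 9 measured genes, the deadenylase gene Cnot6 fell, the poly(A) ribonuclease gene Parn rose, and 7 did not pass the test. Over all genes, 12.8% fell and 8.18% rose, so 1 gene in each direction among 9 is near the background. At the level of probe sets, 3 of 28 fell and 1 rose, against 9.31% and 6.82% of all probe sets. The median log2 difference of the 9 genes was -0.10, against 0.003 over all genes. When a gene was counted by any of its probe sets, 1 rose and 2 fell (Cnot6 and Cnot6l), against 11.1% and 16.1% of all genes. The array groups did not overlap in 2 of the 9 genes (Cnot6 and Parn) and in 26.2% of all genes, and in 5 of the 28 probe sets against 21.2% of all. The 7 genes that did not pass had log2 differences between -0.20 and 0.02, and the limits of their 95% intervals lay between -0.36 and 0.20. With each array centred on its median, or without probe sets ending in _x_at or _s_at, whose probes may match more than 1 transcript, 0 members rose and 1 fell.

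**Figure D1:**
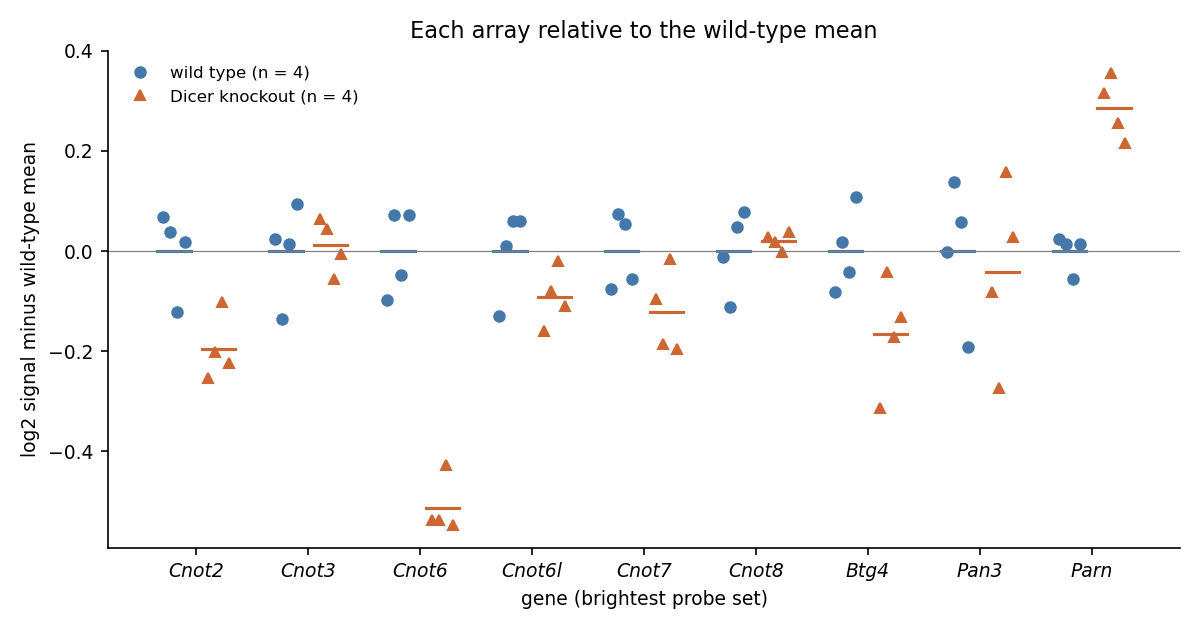
The log2 signal of each array minus the wild-type mean (vertical axis) is plotted for the brightest probe set of each gene (horizontal axis), with circles for 4 wild-type arrays, triangles for 4 Dicer knockout arrays and lines at group means. All knockout values of Cnot6 lie below, and all those of Parn above, the wild-type values, while the groups of the other 7 genes overlap.

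Cnot6 encodes a catalytic subunit of the exonuclease-endonuclease-phosphatase type, the CCR4 part of the complex. Its brightest probe set (1426683_at) read 10.67, 10.84, 10.72 and 10.84 in the wild-type mice and 10.23, 10.23, 10.34 and 10.22 in the knockout mice. The lowest wild-type value stood above the highest knockout value, and the knockout values were close to each other. The group means were 10.77 ± 0.0896 and 10.26 ± 0.0554 (SD, n = 4 and 4), a log2 difference of -0.51 ± 0.0722 (SE) or 0.702-fold, with an adjusted p of 0.00126 in limma. The exact two-sided permutation p was 0.0286, the smallest that 4 against 4 arrays can give. A second probe set (1426685_a_at) ranged from 9.89 to 10.20 in wild type and from 9.37 to 9.62 in knockout. It too fell without overlap, by 0.53 in log2 (adjusted p = 0.00312 in limma). Both calls held in each fit that left out 1 array, with adjusted p up to 0.00546 and 0.0109.

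The remaining Cnot6 probe sets were also lower in the mean and did not pass. Probe set 1426682_at read 9.49 to 9.87 in wild type and 8.78 to 9.52 in knockout, a log2 difference of -0.40 with a 95% interval from -0.77 to -0.03 (limma adjusted p = 0.143). Here the groups overlapped, and knockout array 2 was the lowest. The dim 1426684_at read 6.94 to 7.28 and 6.70 to 7.07, a log2 difference of -0.19 (limma adjusted p = 0.281). In within-array differences between probe sets, the change of 1426683_at differed from that of 1426684_at by -0.32 (exact two-sided permutation p = 0.0571, adjusted over 7 such comparisons within Cnot6, Cnot6l and Parn 0.10) and from that of 1426682_at by -0.11 (exact permutation adjusted p = 0.886). With a smallest p of 0.0286, these adjusted p could pass only if at least 5 of the 7 comparisons reached it, so they say nothing about whether the probe sets changed alike.

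Cnot6l, the paralogue with a known part in clearing maternal mRNAs, did not pass in its brightest probe set. Probe set 1425480_at read 13.86, 14.00, 14.05 and 14.05 on the wild-type arrays and 13.83, 13.91, 13.97 and 13.88 on the knockout arrays. The groups overlapped, and the log2 difference was -0.10 ± 0.0727 (SE, limma adjusted p = 0.439), with a 95% interval from -0.26 to 0.07. The next brightest, 1425481_at and 1451723_at, each gave -0.06, with intervals from -0.22 to 0.10 and from -0.21 to 0.10. The dimmest of the 4, 1434311_at, fell. It read 9.07, 8.89, 9.08 and 9.12 in the wild-type mice and 8.62, 8.68, 8.87 and 8.45 in the knockout mice, so knockout array 3 reached almost to wild-type array 2. Its log2 difference was -0.38 ± 0.0992 (SE, limma adjusted p = 0.0278). This call ended when any 1 of wild-type arrays 1, 3 and 4 or knockout arrays 1, 2 and 4 was left out, at adjusted p of 0.0539 to 0.0748, and under quantile (0.0912) and cyclic loess scaling (0.0928). Its change differed from those of the 3 brighter probe sets by -0.29 against 1425480_at, -0.32 against 1425481_at and -0.32 against 1451723_at. The exact two-sided permutation p were 0.0571, 0.0286 and 0.0571, and 0.10 each after adjustment over the 7 comparisons, under the same limit.

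The paralogues were compared directly, as the difference between their brightest probe sets on each array. Cnot6 minus Cnot6l was -3.20, -3.16, -3.33 and -3.21 on the wild-type arrays and -3.59, -3.68, -3.63 and -3.65 on the knockout arrays. The knockout values all lay below the wild-type ones, so the signal of Cnot6 relative to Cnot6l changed by -0.42 in log2. The exact two-sided permutation p was 0.0286, the smallest possible, and 0.0571 adjusted over the 2 paralogue pairs. With this floor the adjusted p could pass only if both pairs were at it. In the fits without 1 array the change lay between -0.45 and -0.39. With all probe sets of each gene averaged the change was -0.26 (exact permutation adjusted p = 0.171).

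**Figure D2:**
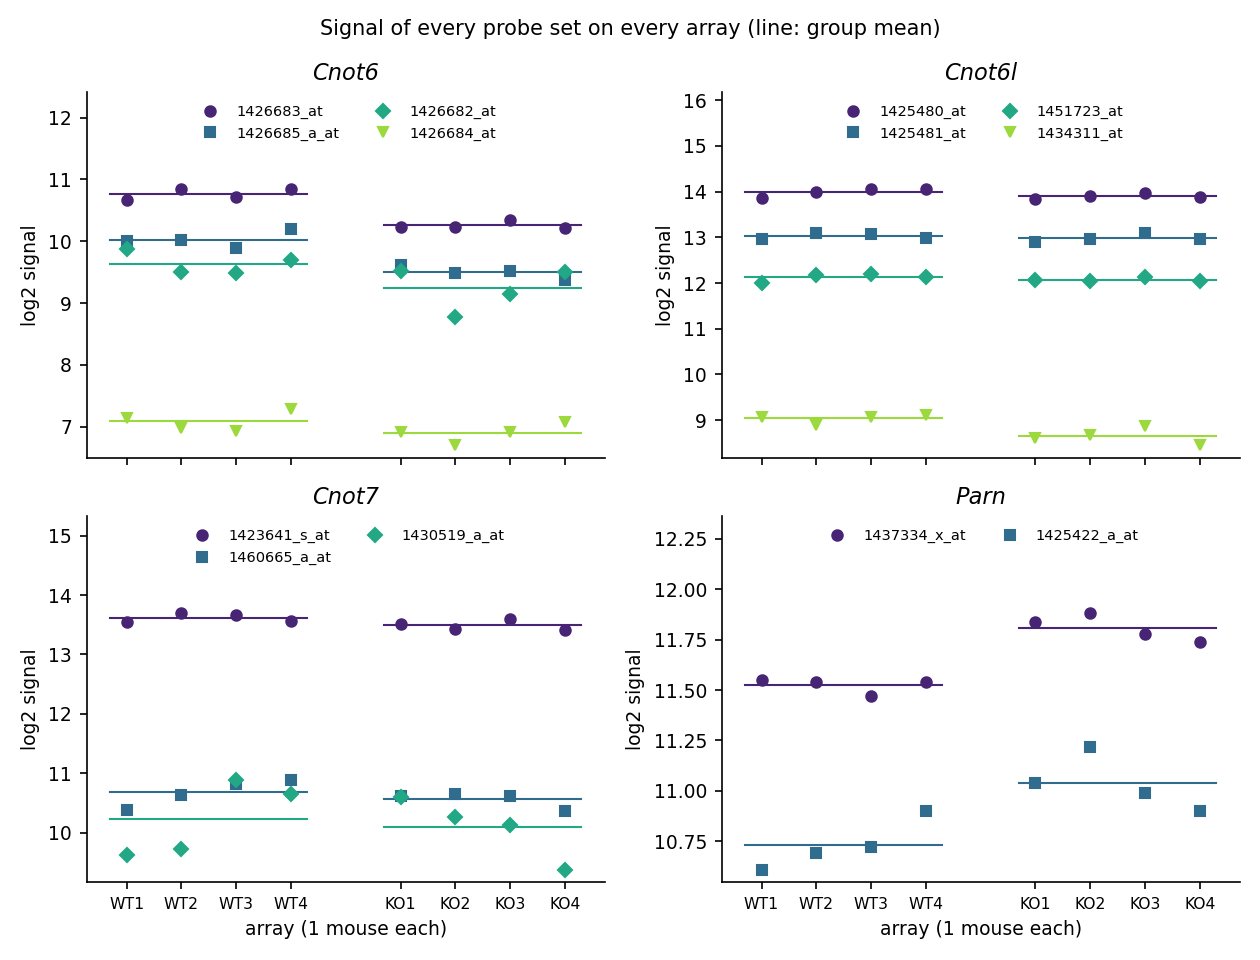
Log2 signals (vertical axes) of every probe set of Cnot6, Cnot6l, Cnot7 and Parn are shown on each of the 8 arrays (horizontal axes, WT for wild type and KO for Dicer knockout), with lines at group means. The 2 brightest Cnot6 probe sets step down in knockout by 0.51 and 0.53, the 3 brightest of Cnot6l lie nearly level, and 1 Cnot7 probe set spreads widely within both groups.

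Cnot7 and Cnot8 encode the other catalytic position of the complex, filled by nucleases of the CAF1 type. The brightest Cnot7 probe set (1423641_s_at) read 13.54, 13.69, 13.67 and 13.56 in wild-type oocytes and 13.52, 13.43, 13.60 and 13.42 in knockout oocytes, a log2 difference of -0.12 with a 95% interval from -0.29 to 0.04 (limma adjusted p = 0.318). The groups overlapped. Cnot8 (1451102_at) read 12.69, 12.59, 12.75 and 12.78 on the wild-type arrays and 12.73, 12.72, 12.70 and 12.74 on the knockout arrays, where the values were almost equal. Its log2 difference was 0.02 with an interval from -0.13 to 0.17 (limma adjusted p = 0.891). The second Cnot8 probe set, 1421135_a_at, gave 0.07 with an interval from -0.22 to 0.35. Cnot7 minus Cnot8 changed by -0.14 between the groups (exact two-sided permutation p = 0.143, also after adjustment over the 2 pairs).

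A further Cnot7 probe set, 1430519_a_at, varied between mice of both genotypes more than it differed between the genotypes. It read 9.63, 9.73, 10.88 and 10.65 in the wild-type mice and 10.60, 10.27, 10.13 and 9.38 in the knockout mice. Wild-type arrays 3 and 4 and knockout array 1 were high, while wild-type arrays 1 and 2 and knockout array 4 were low. The SDs were 0.634 and 0.515, and 98.4% of all probe sets had a smaller within-group SD. Its log2 difference of -0.13 had a 95% interval from -0.86 to 0.61. The third Cnot7 probe set, 1460665_a_at, read 10.39 to 10.88 in wild type and 10.37 to 10.65 in knockout, with the lowest values also on wild-type array 1 and knockout array 4.

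Cnot2 and Cnot3 encode the module that docks on the CNOT1 scaffold. For Cnot2, the brightest probe set (1436980_x_at) read 12.46, 12.43, 12.27 and 12.41 in wild-type oocytes and 12.14, 12.19, 12.29 and 12.17 in knockout oocytes. Wild-type array 3 and knockout array 3 overlapped, and the log2 difference was -0.20 ± 0.0726 (SE, limma adjusted p = 0.104). Probe set 1456576_x_at came nearest to the threshold. It read 11.78, 11.75, 11.59 and 11.61 on the wild-type arrays and 11.39, 11.39, 11.55 and 11.40 on the knockout arrays, without overlap, at -0.25 ± 0.0761 (SE, limma adjusted p = 0.053). It passed when dim probe sets were left out (adjusted p = 0.0489), with median centring (0.030), a variance trend (0.044), array weights (0.042) or without knockout array 3 (0.0477). The probe sets 1454602_s_at and 1454603_a_at gave -0.17 and -0.16. The last 2 Cnot2 probe sets read at most 3.59 and 5.05 on any array, near or below the lower quartile of 5.0 of all probe sets, and gave 0.11 and 0.10.

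Cnot3 read 12.55, 12.39, 12.54 and 12.62 in the wild-type mice and 12.59, 12.57, 12.47 and 12.52 in the knockout mice (1435965_at). The knockout values lay within the wild-type range, and the log2 difference was 0.01 with a 95% interval from -0.15 to 0.18 (limma adjusted p = 0.938). Its other probe set gave 0.02.

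Btg4 encodes an adaptor that links CCR4-NOT to maternal mRNAs in eggs and has a single probe set. It read 13.87, 13.97, 13.91 and 14.06 in wild-type oocytes and 13.64, 13.91, 13.78 and 13.82 in knockout oocytes. Knockout array 2 overlapped the wild-type range, and the group means were 13.95 ± 0.085 and 13.79 ± 0.111 (SD, n = 4 and 4). The log2 difference of -0.16 had a 95% interval from -0.34 to 0.02 (limma adjusted p = 0.222), and it stayed between -0.23 and -0.10 in the other fits without passing in any of them.

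Parn rose. Its brighter probe set (1437334_x_at) read 11.55, 11.54, 11.47 and 11.54 on the wild-type arrays and 11.84, 11.88, 11.78 and 11.74 on the knockout arrays. The groups did not overlap, and 2.04% of all probe sets had a smaller within-group SD. The means were 11.52 ± 0.0378 and 11.81 ± 0.0628 (SD, n = 4 and 4), a log2 difference of 0.29 ± 0.0656 (SE) or 1.22-fold (limma adjusted p = 0.016), and the exact two-sided permutation p was the smallest possible, 0.0286. The call held without any 1 array (adjusted p up to 0.0451) and ended with median centring (0.23, adjusted p = 0.0658). The second probe set (1425422_a_at) read 10.61, 10.69, 10.72 and 10.90 in the wild-type mice and 11.04, 11.22, 10.99 and 10.90 in the knockout mice, where knockout array 4 met wild-type array 4. Its log2 difference was of the same size, 0.31 ± 0.0925 (SE), and just missed the threshold (limma adjusted p = 0.0517). It passed when dim probe sets were left out (0.0472), with quantile (0.0358) or cyclic loess scaling (0.0163), and without wild-type array 4 (0.0368) or knockout array 4 (0.0492). The changes of the 2 probe sets differed by -0.02 (exact two-sided permutation p = 0.886 after adjustment over the 7 comparisons). With 4 arrays per group, this p does not show that the probe sets changed alike.

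Pan3 encodes the subunit that brings the PAN2 nuclease to the poly(A)-binding protein. Its brightest probe set (1428768_at) read 11.92, 12.06, 11.98 and 11.73 in wild-type oocytes and 11.84, 11.65, 12.08 and 11.95 in knockout oocytes, and each group spanned much of the other. The log2 difference was -0.04 with a 95% interval from -0.29 to 0.20 (limma adjusted p = 0.843). The other Pan3 probe sets gave -0.12, 0.22 and 0.05, and the one at 0.05 read at most 3.56.

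**Figure D3:**
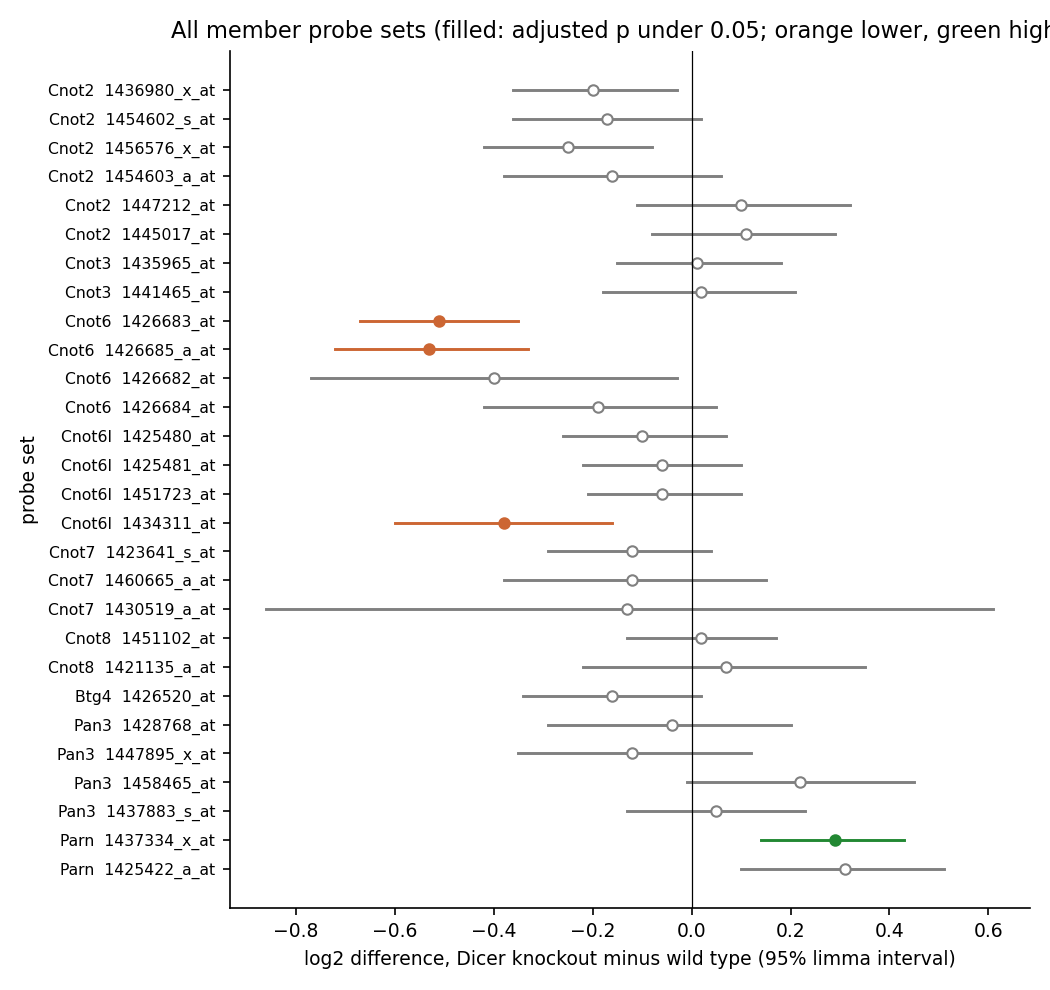
The log2 difference, Dicer knockout minus wild type (horizontal axis), of all 28 probe sets (vertical axis) is drawn with its 95% limma interval, filled where the adjusted p is under 0.05. The filled points are 2 probe sets of Cnot6 and 1 of Cnot6l below 0, and 1 of Parn above 0.

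The sample titles carry a code whose first number is shared by a wild-type and a knockout mouse in 2 cases, 24 and 27, and its meaning is not given. Within these, knockout minus wild type was -0.43 and -0.62 for Cnot6 (1426683_at), -0.51 and -0.66 for 1426685_a_at, and 0.34 and 0.20 for Parn (1437334_x_at). The Cnot6 probe set that varied more, 1426682_at, gave -1.09 and -0.01. For Cnot6l (1425480_at) the values were 0.04 and -0.13, and for Btg4 0.04 and -0.15. With this number as a random block the counts of 1 gene higher and 1 lower were unchanged. The correlation within blocks was -0.0778, so this fit could differ little from the main one and says little about the code.

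The other subunits, deadenylases and Tob or Btg adaptors measured were 15 genes, of which 1 rose and 2 fell. This is near the 8.18% and 12.8% of all genes. Angel2, of the same nuclease family as Cnot6, fell from 12.91 ± 0.0422 to 12.60 ± 0.0597 (SD, n = 4 and 4), a log2 difference of -0.32 (limma adjusted p = 0.0097), and 5 of its 6 probe sets fell. Tob1 and Btg2 encode antiproliferative adaptors related to BTG4. Tob1 rose by 0.66 in log2 (limma adjusted p = 0.0339), with overlapping groups, and Btg2 fell by 0.48 (limma adjusted p = 0.0354). The Angel2 call held without any 1 array, whereas those of Tob1 and Btg2 held in 3 of 8 such fits each. Tob1 lost its call without wild-type array 3 or 4 or knockout array 1, 3 or 4, and with median centring. Btg2 lost it without wild-type array 2, 3 or 4 or knockout array 1 or 3, and with quantile or cyclic loess scaling.

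The other CCR4-NOT subunits did not pass, with log2 differences of 0.14 for Cnot4, 0.12 for Cnot9, -0.21 for Cnot10 and 0.04 for Cnot11. Neither did Pan2, the nuclease partner of Pan3 (-0.12), Noct (0.01), Angel1 (0.30), Pde12 (0.22), Toe1 (-0.23), Pnldc1 (-0.33), Tob2 (0.00) or Btg1 (0.05). These values are of brightest probe sets, and among those of the 12 genes that did not pass, Angel1 had the lowest limma adjusted p, 0.0742. A dimmer Cnot4 probe set, 1437586_at, gave 0.23 without overlap of the groups (limma adjusted p = 0.0621). Probe sets of 1 gene differed in sign for Cnot4 (-0.20 to 0.23), Cnot10 (-0.21 to 0.14) and Pde12 (-0.26 to 0.34). The median of the 15 genes was 0.01.

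Of 17 genes for proteins that bring deadenylases to chosen mRNAs, 2 rose and 3 fell (8.18% and 12.8% of all genes), with a median log2 difference of 0.07. Zfp36l1, which binds AU-rich elements, fell by 0.49 (limma adjusted p = 0.002), Nanos1 by 0.98 (0.00964) and Cpeb1, which binds the cytoplasmic polyadenylation element, by 0.22 (0.0412). Samd4b, a Smaug-type repressor, rose by 0.33 (limma adjusted p = 0.0384) with overlapping groups, and Pum2, a Pumilio protein, by 0.26 (0.0412). Of the 4 Pum2 probe sets 1 rose and 1 fell, and the mean over them gave -0.20 (limma adjusted p = 0.126). The calls of Zfp36l1 and Nanos1 held without any 1 array, and those of Samd4b, Pum2 and Cpeb1 in 2, 1 and 0 of 8 such fits. Of the 2 probe sets each of Zfp36l1 and Nanos1, 1 fell. The Zfp36l1 difference lay between -0.53 and -0.22 in the other fits that kept all arrays. Samd4b also lost its call with median centring and a variance trend, Pum2 with median centring, and Cpeb1 with quantile or cyclic loess scaling. Tnrc6a, Tnrc6b and Tnrc6c, which link Argonaute to the deadenylases, gave 0.19, 0.01 and 0.11 and did not pass in their brightest probe sets, and 1 of the 9 Tnrc6a probe sets rose.

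Poly(A)-binding proteins, their partners and poly(A) polymerases were 19 genes, of which 1 rose and 5 fell (8.18% and 12.8% of all genes), with a median log2 difference of -0.06. Pabpn1l, an oocyte form of the nuclear poly(A)-binding protein, fell most, from 13.00 ± 0.0726 to 11.86 ± 0.216 (SD, n = 4 and 4), a log2 difference of -1.14 (limma adjusted p = 0.000139). Pabpn1 fell by 0.30 (limma adjusted p = 0.012) and Paip2b, which holds the poly(A)-binding protein off the tail, by 0.28 (0.0155). Of the 4 Pabpn1 probe sets 2 fell. The poly(A) polymerase genes Papola and Papolg, named to complete the count after their values were seen, fell by 0.47 and 0.35. Of the 5 Papola probe sets 2 fell and 1 rose. Papola lost its call without wild-type array 1 or 4 (adjusted p up to 0.0528). Of the 2 Papolg probe sets 1 fell, and Papolg lost its call with cyclic loess scaling and with its probe sets averaged. Pabpc1, a cytoplasmic poly(A)-binding protein, rose by 0.70 (limma adjusted p = 0.0227) with overlapping groups. Its call held in 2 of 8 fits without 1 array. Of the 2 Pabpc1 probe sets 1 rose, and the mean over them gave 0.23 and did not pass (limma adjusted p = 0.147). Its relatives Pabpc1l and Pabpc4, also named after their values were seen, went opposite ways and did not pass. Pabpc1l gave -0.30 without overlap of the groups (limma adjusted p = 0.0517), and Pabpc4 gave 0.27 (0.0999). In other fits Pabpc1l passed as lower with median centring, and Pabpc4 as higher with cyclic loess scaling. Over these 3 lists together 4 genes rose and 10 fell, against 1488 and 2330 of all 18193 genes. The balance moved with the scaling: 1 rose and 13 fell with median centring (1213 and 2592 of all genes), 5 and 8 with quantile scaling (1606 and 2141), and 6 and 7 with cyclic loess scaling (1745 and 1864). The count of 4 that rose was 0 without wild-type array 3 or 4 or knockout array 1 or 3, and 1 without wild-type array 2 or knockout array 4.

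**Figure D4:**
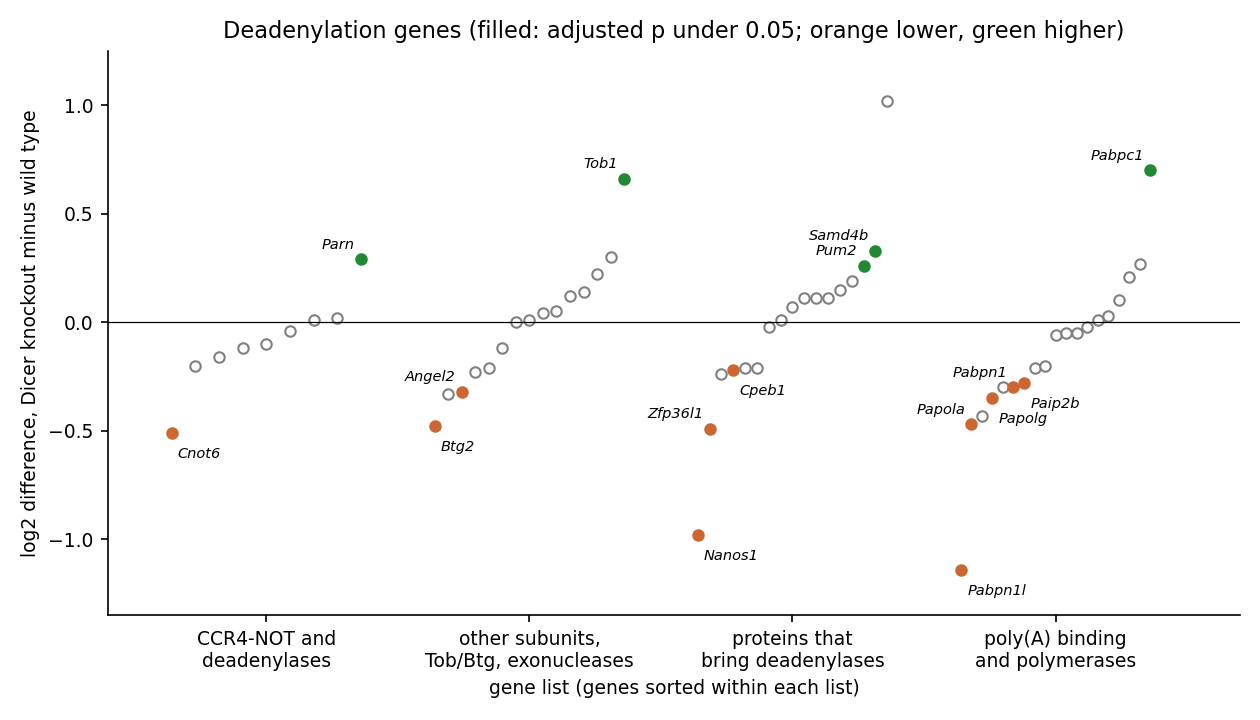
Each point is the log2 difference, Dicer knockout minus wild type (vertical axis), of the brightest probe set of a gene, sorted within 4 gene lists (horizontal axis) and filled and named where the limma adjusted p is under 0.05. Filled points lie on both sides of 0 in every list, and the lowest is Pabpn1l at -1.14.

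The genes whose signals over the 8 arrays were most like those of Cnot6 were Rars2 (r = 0.99), Slc25a35 (r = 0.99) and Eif4e3 (r = 0.988), taken from named genes by Pearson correlation of brightest probe sets. Those most like Parn were Atf5 (r = 0.995), Castor1 (r = 0.99) and Pacs1 (r = 0.989). The arrays share 2 genotypes, and all 6 genes differed between them, with log2 differences of -0.36 to -0.62 for the genes like Cnot6 and 0.46 to 0.87 for those like Parn, so these correlations are descriptions of 8 points that fall into those groups.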

How the data were processed

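Oocyte RNA of 4 wild-type and 4 Dicer knockout mice was measured on 1 array each, grouped by the genotype label. The authors deposited log2 signals per probe set, for which the submitters' processing notes name RMA and Partek without a version. Low signals are compressed by RMA, and detection calls were not used. The table held 45101 probe sets and 0 missing values, and 64 controls were left out. Gene names came from the platform annotation, in which 34945 probe sets had 1 symbol, 932 had several and 9160 had none. Symbols were looked up in the RefSeq table of GRCm38.p6.

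limma 3.58.1 in R 4.3.3 (lmFit, eBayes) was fitted without covariates and adjusted over 45037 probe sets, after a check on simulated data. Single values were compared by exact permutation over 70 arrangements. p-values rest on the spread between arrays of 1 mouse each, in which mouse, oocyte pool, amplification and array cannot be separated. In limma the variance also draws on all 45037 probe sets. With 4 arrays per group the precision of these p-values is limited. The members and lists were chosen with earlier results of these data known. Named genes were all members and all measured genes of the list of other subunits, deadenylases and adaptors. In the lists of recruiting and poly(A)-binding proteins they were up to 3 genes per direction by lowest p. The 3 genes most like the member with the lowest p per direction were also named. The alternatives tried left out dim probe sets (keeping log2 of at least 5 on at least 4 arrays), changed the scaling, the variance model or the array weights, took the title code as block, averaged the probe sets of each gene, dropped those of shared sequence, or dropped 1 array in turn. Counting a gene by any probe set, and comparisons between probe sets of a gene, were added after seeing the data.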

Additional observations from a re-analysis of the deposited data

Results flagged for a closer look

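In 86 groups of 4 arrays (all member probe sets and the brightest probe set of the 15 other subunits and deadenylases), 6 had 1 array far from the rest, where chance alone gives about 4.3. In the Cnot6 probe set that fell most clearly (1426683_at), knockout array 3 read 10.34 and the other knockout arrays 10.22 to 10.23, so this array lay nearest to wild type. Knockout array 3 was also high in a Cnot2 probe set (1456576_x_at), at 11.55 against 11.39 to 11.40. In Parn (1437334_x_at), wild-type array 3 was low, at 11.47 against 11.54 to 11.55. In Cnot7 (1460665_a_at), knockout array 4 was low, at 10.37 against 10.61 to 10.65. The dim Cnot2 probe set 1447212_at read 4.71 on knockout array 1 and 5.03 to 5.05 on the others. In Cnot4 (1436645_a_at), wild-type array 4 was low, at 12.20 against 12.43 to 12.47.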

How the results depend on the processing

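The fall of Cnot6 held in all 18 other fits. Its brightest probe set gave between -0.42 and -0.56 in log2, and the mean of its 4 probe sets gave -0.41 (limma adjusted p = 0.00707). The count of members that rose was 0 with median centring and without probe sets ending in _x_at or _s_at, where Parn is left with its second probe set (limma adjusted p = 0.0523), and 1 in the other 16 fits. The count of members that fell was 2 when any probe set of a gene could count, which adds Cnot6l. In the lists of other subunits, recruiting and poly(A)-binding proteins, the count that rose was 1 with median centring, 2 with the probe sets of each gene averaged and 0 to 5 when 1 array was left out, against 4 with all arrays. It was 5 with quantile and 6 with cyclic loess scaling, with 8 and 7 that fell. Pum2 turned to -0.20 when its probe sets were averaged. The causes were not tested. Without 1 array, 3 against 4 arrays cannot reach an exact two-sided p under 0.0571, so only the size of the paralogue differences has that check: -0.45 to -0.39 for Cnot6 against Cnot6l and -0.19 to -0.08 for Cnot7 against Cnot8. Low signals limit the dim Cnot2 and Pan3 probe sets.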
